A study of Danio rerio with 8 samples.

Results

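Claudins are membrane proteins that cross the lipid bilayer several times and join neighbouring epithelial or endothelial cells at the tight junction. Their extracellular loops seal the space between the cells or form pores in it that choose between ions, and each tissue uses its own set of family members, so the set decides how leaky an epithelium is. In a zebrafish larva the skin is the barrier to fresh water, and other claudins serve the gut, the kidney tubule, the inner ear, blood vessels and the myelin sheath. The family was taken as every gene of the deposited count table whose Ensembl ID carries a symbol beginning with cldn. That gave 33 genes of 32434, and 31 of the 33 passed the filter on low counts. One of them, cldnd1, encodes a claudin-domain protein that is not counted among the classic claudins, and the choice by symbol keeps it in.

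The samples were whole zebrafish larvae at 5 days post fertilization, and polyadenylated RNA was sequenced. One group was labelled seph mutant and the other wild type, with 4 libraries each. The gene seph encodes selenoprotein H, a nuclear selenium-containing protein, and is now named selenoh. The allele, the genetic background, the clutches and the number of larvae per library are not given by the labels, so p-values here cover only the variation among the sequenced samples, some of which may be technical. Libraries held between 51246749 and 56409917 counts, and selenoh had 0 to 20 counts in mutant libraries, against 737 to 1225 in wild type libraries. Both replicate 3 libraries stood apart. Their deviations from the mean of their group had a correlation of 0.579 across all tested genes, against 0.131 to 0.364 for the other pairs that share a number. Whole larvae mix many cell types, so fewer or more cells of a type and less or more RNA per cell cannot be told apart.

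Summed together, the 33 claudin genes took a larger part of the counted RNA in mutant larvae, which does not mean that each gene rose. Their share of all counts was 0.114% ± 0.00349 in mutant libraries and 0.0711% ± 0.00562 in wild type libraries (SD, n = 4 each). Levels are library-scaled read counts (CPM), corrected with TMM factors (trimmed mean of M-values). They are not corrected for transcript length, so they compare 1 gene between libraries and not 2 genes with each other. The 33 genes summed to 1065, 1128, 1085 and 1143 CPM in mutant replicates 1 to 4, against 695, 723, 718 and 781 CPM in wild type replicates 1 to 4. The lowest mutant sum lay above the highest wild type sum. The means were 1105 ± 36.2 CPM in mutant larvae and 729 ± 36.9 CPM in wild type larvae (SD, n = 4 each), a ratio of 1.52, which is given as a description. The skin gene cldni supplied 25.3% ± 2.35 of the claudin counts in the mutant and 18.3% ± 0.981 in wild type. Without it the remaining claudin genes summed to 826 ± 42.8 CPM in mutant larvae and 596 ± 34.3 CPM in wild type larvae (SD, n = 4 each).

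Of the 31 tested claudin genes, 10 rose in the mutant, none fell and 21 were not called. A gene is called changed at an adjusted p under 0.05 in edgeR's quasi-likelihood test, with Benjamini-Hochberg adjustment over 27050 genes. The 10 are 32.3% of the tested members, while 8.65% of all tested genes rose and 8.45% fell. The groups did not overlap for 11 members with the mutant above, or 35.5%, and for 1 with the mutant below, against 11% and 11.1% of all tested genes. The median log2 fold change of the tested members was 0.26, and that of all tested genes was 0.0082. For the count of 0 lower members, 2 had an unadjusted p under 0.05 (15.8% of all genes). The DESeq2 Wald test also called 0 lower (12.3% of all genes), and limma-voom called 2, cldnk and cldn33b (17.6% of all genes). Scaled by library size only, 62.2% of all calls were higher, against 50.6% with TMM.

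**Figure D1:**
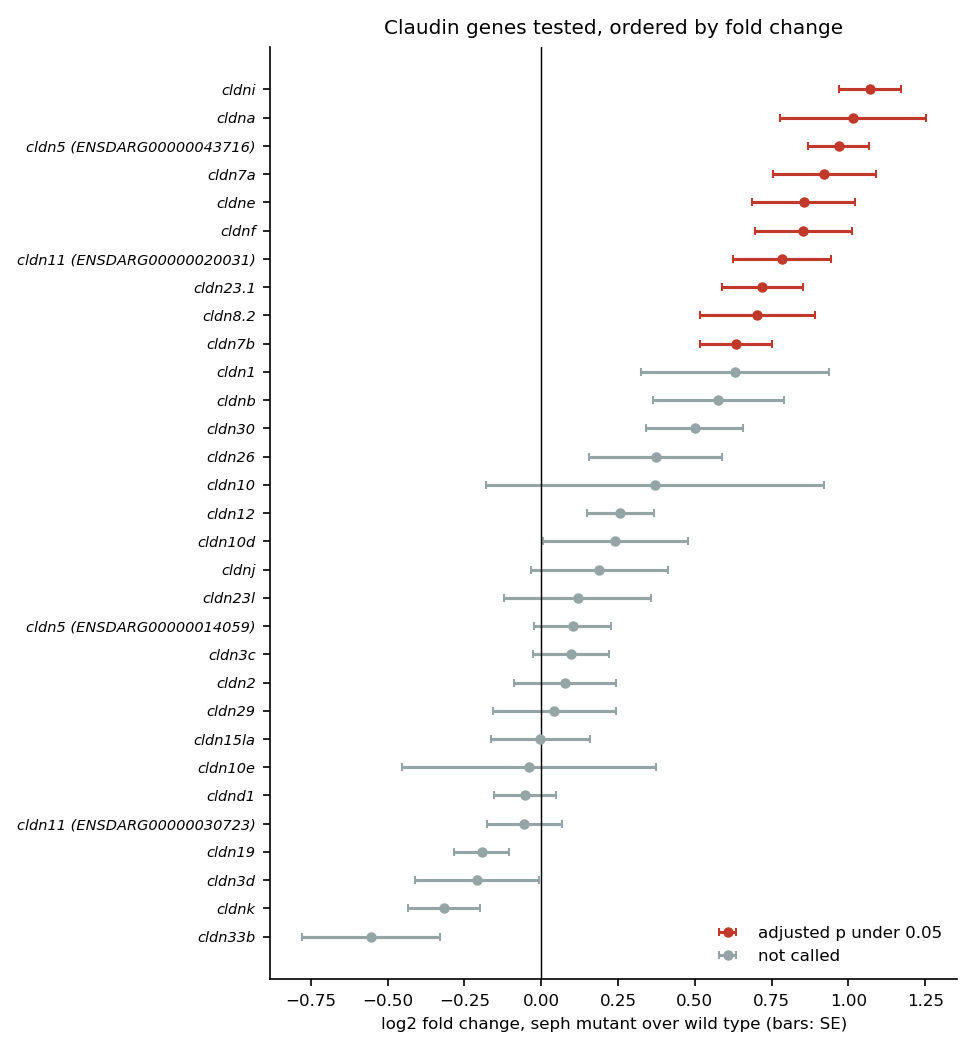
Log2 fold change of mutant over wild type larvae for the 31 claudin genes tested, 1 row per gene, with bars for the standard error (SE). The 10 red genes passed the edgeR test and lie between 0.63 for cldn7b and 1.07 for cldni; the grey genes were not called.

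Claudins of the skin were among the genes that rose. cldni, expressed in the epidermis of zebrafish, had 259, 259, 309 and 289.9 CPM in mutant replicates 1 to 4, against 125, 129.8, 141 and 136 CPM in wild type replicates 1 to 4. All mutant libraries lay well above all wild type libraries, and the spread within each group was narrow. Its level rose 2.10-fold (log2 fold change 1.07 ± 0.10, SE, edgeR adjusted p = 0.000297). cldne, known from the enveloping layer that covers the zebrafish embryo, had 91.5, 118, 116 and 119 CPM in the mutant replicates, against 48.0, 51.9, 77.8 and 68.0 CPM in the wild type ones. The groups did not overlap, although mutant replicate 1 lay below the other mutant libraries. The increase was 0.85 ± 0.17 on the log2 scale (SE, edgeR adjusted p = 0.00884).

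The genes cldnf and cldna lie beside cldne. In the RefSeq annotation of GRCz12tu, cldnj, cldne, cldnf and cldna follow each other with no other protein-coding gene between them. cldnf had 19.8, 23.5, 18.0 and 24.9 CPM in the mutant replicates, against 9.39, 10.9, 13.7 and 13.7 CPM in wild type, an increase of 0.85 ± 0.16 on the log2 scale (SE, edgeR adjusted p = 0.00703). cldna had 10.9, 13.5, 7.27 and 15.3 CPM in the mutant replicates, against 5.79, 6.94, 4.26 and 6.23 CPM in wild type. Its increase was 1.02 ± 0.24 (SE, edgeR adjusted p = 0.0187), and the replicate 3 library was the lowest of each group. Without mutant replicate 2 or wild type replicate 1 cldna lost its call (adjusted p = 0.0557 and 0.058, 0.000811 to 0.058 over its alternatives). The fourth gene of the run, cldnj, which zebrafish need for otolith formation in the ear, was not called. It had 1.301, 2.02, 2.02 and 1.79 CPM in the mutant replicates, against 1.55, 1.32, 2.07 and 1.31 CPM in wild type (0.19 ± 0.22, SE, edgeR adjusted p = 0.608). The difference between cldnj and its neighbours was not tested. No claudin gene had the same counts as another gene in all 8 libraries, but how reads that match several paralogs were counted is not stated by any label or header.

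Several further claudin genes rose as well. The pair cldn7a and cldn7b is related to mammalian claudin 7, which binds the adhesion protein EpCAM in epithelial cells. cldn7a had 59.8, 64.8, 55.2 and 55.9 CPM in the mutant replicates, against 24.9, 24.9, 33.2 and 41.4 CPM in wild type (0.92 ± 0.17, SE, edgeR adjusted p = 0.00623). cldn7b had 82.9, 80.9, 98.5 and 89.5 CPM in the mutant replicates, against 49.5, 52.1, 59.07 and 66.2 CPM in wild type (0.63 ± 0.12, SE, edgeR adjusted p = 0.0071). Both rose with no overlap between the groups. cldn23.1 had 39.7, 47.5, 38.6 and 45.9 CPM in the mutant, against 25.0, 27.7, 20.8 and 30.8 CPM in wild type (0.72 ± 0.13, SE, edgeR adjusted p = 0.00691). cldn8.2 is related to mammalian claudin 8, a barrier protein of the distal kidney tubule. It had 27.6, 30.1, 23.6 and 40.0 CPM in the mutant, against 14.5, 16.7, 21.0 and 22.2 CPM in wild type, and the lowest mutant library was close to the highest wild type one. Its increase of 0.70 ± 0.19 (SE, edgeR adjusted p = 0.0319) had the largest adjusted p of the 10. The call was lost without mutant replicate 1, 2 or 4 (adjusted p = 0.0602, 0.0738 and 0.0709) and without wild type replicate 1 or 2 (0.0904 and 0.0981), in a range of 0.00237 to 0.0981 over its alternatives.

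**Figure D2:**
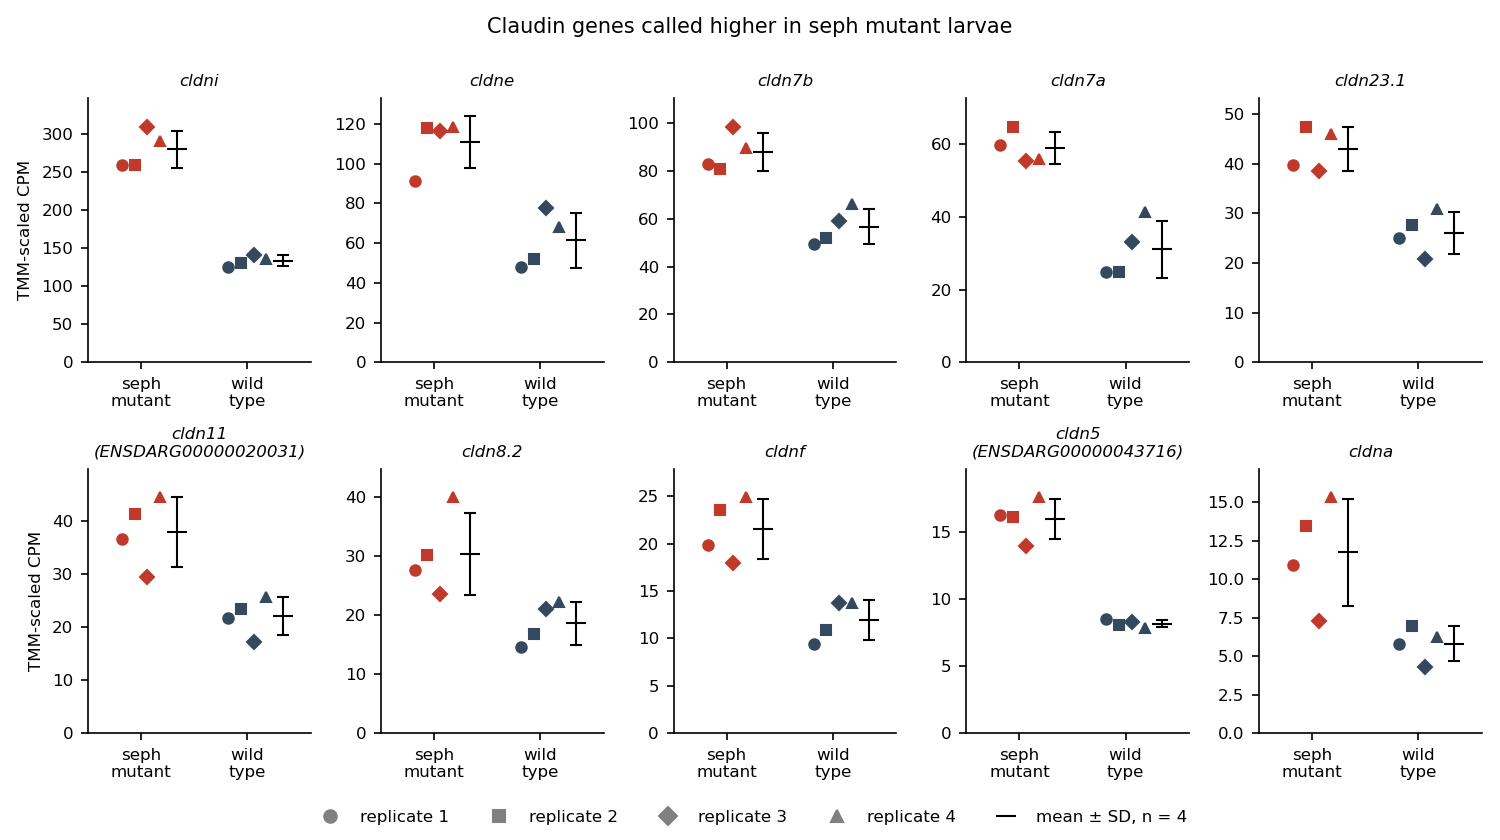
TMM-scaled CPM of the 10 claudin genes called higher, with mutant libraries on the left and wild type libraries on the right of each panel, a symbol for each replicate number and the mean ± SD (n = 4). The lowest mutant library lies above the highest wild type library in all 10 panels, by a wide margin for cldni and a narrow one for cldn8.2 and cldna.

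For each of the symbols cldn5 and cldn11 the table holds 2 genes, and in both cases 1 rose and the other was not called. Claudin 5 is the main claudin of the endothelial tight junctions at the mammalian blood-brain barrier. cldn5 (ENSDARG00000043716) had 16.3, 16.1, 13.9 and 17.6 CPM in the mutant replicates, against 8.48, 8.03, 8.29 and 7.84 CPM in wild type. The wild type libraries were nearly equal and all mutant libraries lay far above them, with an increase of 0.97 ± 0.10 on the log2 scale (SE, edgeR adjusted p = 0.000497). cldn5 (ENSDARG00000014059) had 14.3, 15.8, 11.1 and 14.8 CPM in the mutant replicates, against 13.1, 14.5, 12.2 and 12.2 CPM in wild type. Its groups overlapped (0.10 ± 0.13, SE, edgeR adjusted p = 0.625). The log2 ratio of the first to the second gene was 0.19 ± 0.12 in the mutant and -0.64 ± 0.12 in wild type (SD, n = 4 each), a difference of 0.83.

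Claudin 11 forms the tight junctions of central myelin and of the testis in mammals. cldn11 (ENSDARG00000020031) had 36.5, 41.2, 29.4 and 44.4 CPM in the mutant replicates, against 21.7, 23.3, 17.2 and 25.7 CPM in wild type (0.78 ± 0.16, SE, edgeR adjusted p = 0.0102). Its groups did not overlap, and replicate 3 was the lowest library of each. cldn11 (ENSDARG00000030723) had 14.8, 10.8, 11.9 and 10.5 CPM in the mutant replicates, against 12.5, 12.2, 13.1 and 12.1 CPM in wild type (-0.05 ± 0.12, SE, edgeR adjusted p = 0.799). The log2 ratio of the first to the second gene was 1.61 ± 0.40 in the mutant and 0.78 ± 0.29 in wild type (SD, n = 4 each), a difference of 0.83. In both pairs the ratios of the groups did not overlap. These pairs were chosen after their values were seen, so the ratios are a description with no test.

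**Figure D3:**
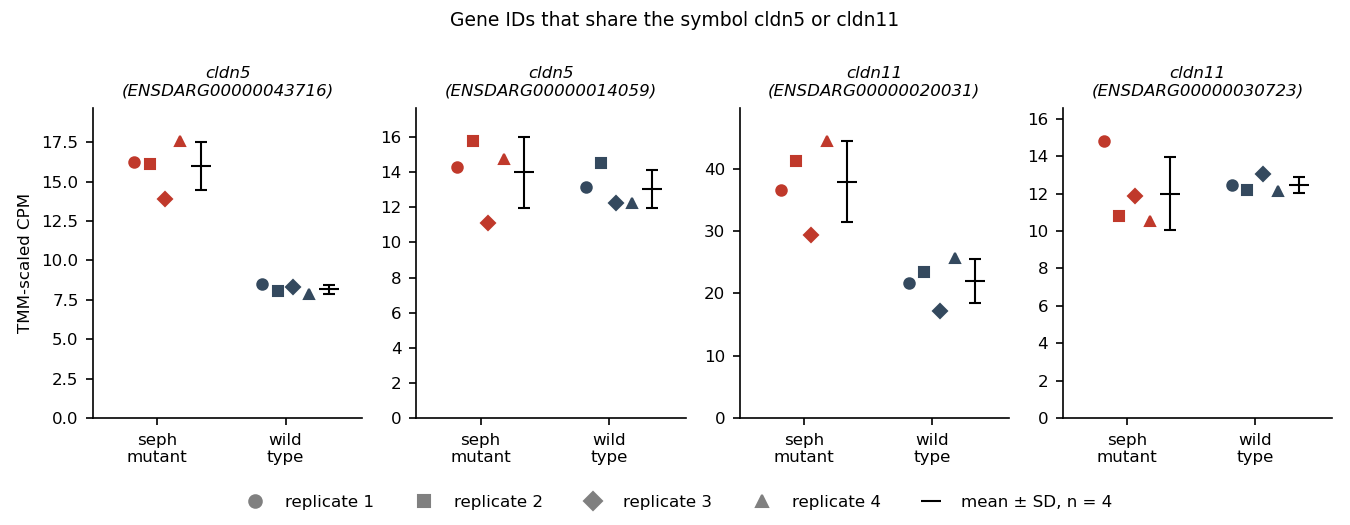
TMM-scaled CPM of the gene pairs that share the symbol cldn5 or cldn11, mutant on the left and wild type on the right of each panel, with replicate symbols and the mean ± SD (n = 4). The groups separate in ENSDARG00000043716 and ENSDARG00000020031 and overlap in the other gene of each pair.

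The calls of cldn1, cldnb, cldn30 and cldnk depended on how the replicates were treated. Those of cldnb, cldn30 and cldnk also depended on the scaling or the test. cldn1 is related to mammalian claudin 1, which newborn mice need to hold water in the skin. It had 58.4, 65.0, 28.2 and 69.2 CPM in mutant replicates 1 to 4, against 42.4, 44.9, 20.5 and 34.8 CPM in wild type replicates 1 to 4. Replicate 3 was the lowest library of each group, by 1.17 on the log2 scale in the mutant and 0.96 in wild type relative to the other 3, and mutant replicate 3 fell inside the wild type range. The difference of 0.63 ± 0.31 (SE) was not called (edgeR adjusted p = 0.195, 0.00484 to 0.361 over its alternatives). With the replicate number as a block cldn1 rose by 0.61 (adjusted p = 0.00842), without mutant replicate 3 by 0.85 (0.042), and without both replicate 3 libraries by 0.66 (0.00484).

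cldnb, used in zebrafish to mark the migrating lateral line primordium and also present in skin, also changed its call. It had 102, 103, 80.5 and 84.9 CPM in the mutant replicates, against 76.4, 76.7, 37.6 and 57.8 CPM in wild type. Every mutant library lay above every wild type library, but the test did not call it (0.58 ± 0.21, SE, edgeR adjusted p = 0.0969, 0.0139 to 0.211 over its alternatives). With the replicate block it rose by 0.62 (adjusted p = 0.0139), and without both replicate 3 libraries by 0.46 (0.0354). Scaled by library size only, cldnb was called higher as well. cldn30 had 7.97, 8.01, 5.56 and 7.76 CPM in the mutant replicates, against 5.72, 5.18, 4.26 and 5.57 CPM in wild type (0.50 ± 0.16, SE, edgeR adjusted p = 0.0581, 0.00804 to 0.143 over its alternatives). Only mutant replicate 3 lay within the wild type range of cldn30. The gene rose by 0.49 with the block (adjusted p = 0.0153), by 0.61 without mutant replicate 3 (0.0165) and by 0.53 without both replicate 3 libraries (0.00804). With every library and no block, the DESeq2 Wald test, limma-voom and scaling by library size only also called cldn30 higher.

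The genes cldnk and cldn19 were not called by edgeR on all 8 libraries without a replicate block. cldnk, expressed by oligodendrocytes and Schwann cells of zebrafish, had 10.4, 11.1, 13.6 and 10.1 CPM in the mutant replicates, against 13.5, 15.2, 14.4 and 13.1 CPM in wild type. Mutant replicate 3 was again the library that reached into the wild type range. The gene missed the threshold in that test (-0.32 ± 0.12, SE, edgeR adjusted p = 0.0978, 0.0121 to 0.236 over its alternatives). It fell by 0.32 with the replicate block (adjusted p = 0.0443), by 0.40 with limma-voom (0.0121), by 0.42 without mutant replicate 3 (0.0259) and by 0.41 without both replicate 3 libraries (0.0174). cldn19, whose mammalian counterpart serves Schwann cells and the kidney tubule, had 11.8, 11.7, 11.7 and 10.7 CPM in the mutant replicates, against 13.5, 12.7, 12.4 and 13.9 CPM in wild type. It was the 1 member with every mutant library below every wild type library, and it was not called (-0.19 ± 0.09, SE, edgeR adjusted p = 0.172). cldnk, cldn19, cldn30 and cldn33b were singled out after their values were seen. With the block, and likewise without both replicate 3 libraries, 13 members were higher and 1 lower. Of all genes 14% were then higher and 13.4% lower with the block, and 15.5% and 14.6% without replicate 3.

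**Figure D4:**
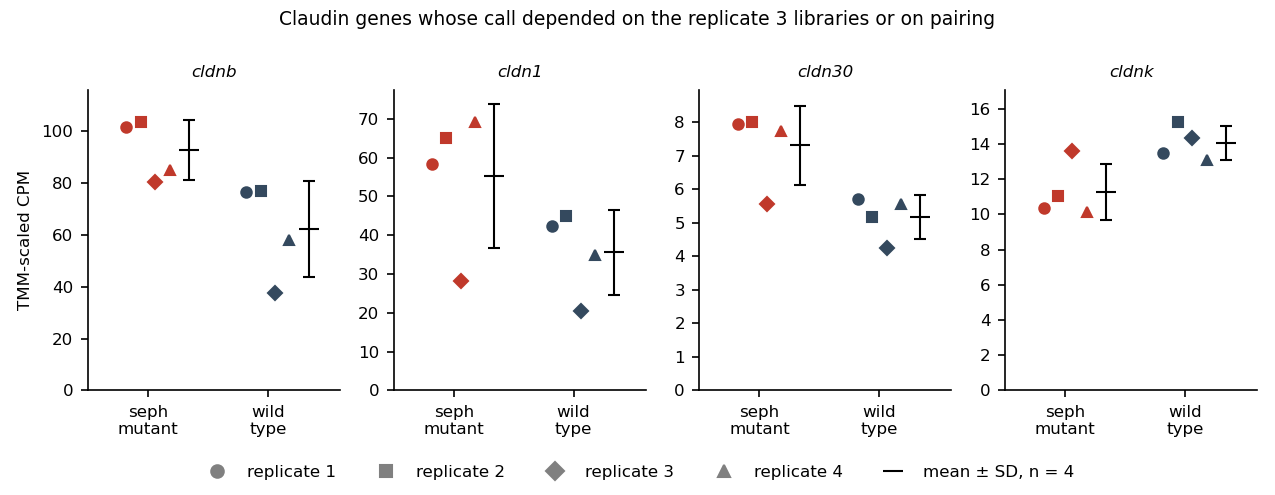
TMM-scaled CPM of cldnb, cldn1, cldn30 and cldnk, mutant on the left and wild type on the right of each panel, with a symbol for each replicate number and the mean ± SD (n = 4). The replicate 3 library (diamond) is the lowest of both groups for cldnb, cldn1 and cldn30, and the highest mutant library for cldnk.

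A gut claudin and several other well measured members were not called. The IDs that carry the symbols cldn15a, cldn15b and cldn15lb are not in the deposited count table. cldn15la, whose promoter is used to mark the zebrafish gut epithelium, had 54.3, 50.4, 69.6 and 49.6 CPM in the mutant replicates, against 47.9, 48.5, 72.2 and 55.8 CPM in wild type. Replicate 3 was the highest library of both groups, and the means were 56.0 ± 9.32 CPM in mutant larvae and 56.1 ± 11.3 CPM in wild type larvae (SD, n = 4 each, log2 fold change -0.0031 ± 0.16, SE). cldn3c, also known as cldnh, averaged 55.9 ± 6.67 CPM in mutant larvae and 52.3 ± 6.91 CPM in wild type larvae. cldn3d, also known as cldnc, averaged 27.0 ± 4.95 CPM in mutant larvae and 31.2 ± 7.76 CPM in wild type larvae, with wild type replicate 3 at 19.6 CPM and the other wild type libraries between 34.2 and 35.5. The claudin-domain gene cldnd1 averaged 14.4 ± 1.28 CPM in mutant larvae and 14.9 ± 1.01 CPM in wild type larvae (SD, n = 4 each). These 4 had edgeR adjusted p between 0.524 and 0.991. cldn12 had a mean of 32.4 ± 3.32 CPM in mutant larvae and 27.1 ± 2.76 CPM in wild type larvae and was not called (0.26 ± 0.11, SE, edgeR adjusted p = 0.141). It rose by 0.33 without wild type replicate 3 (adjusted p = 0.0434, 0.0248 to 0.32 over its alternatives). With every library, limma-voom also called cldn12 higher.

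The members with fewer counts were not called. cldn2, related to the cation pore of leaky mammalian epithelia, had 5.85 ± 0.504 CPM in mutant larvae and 5.55 ± 1.27 CPM in wild type larvae. cldn29 had 4.27 ± 0.805 CPM in mutant larvae and 4.14 ± 0.987 CPM in wild type larvae, and cldn23l had 2.29 ± 0.669 CPM in the mutant, against 2.11 ± 0.442 CPM in wild type (SD, n = 4 each). cldn33b had 0.965 ± 0.223 CPM in mutant larvae and 1.42 ± 0.175 CPM in wild type larvae (-0.55 ± 0.23, SE), with overlapping groups. cldn26 averaged 1.297 ± 0.150 CPM in mutant larvae and 1.001 ± 0.203 CPM in wild type larvae, and cldn10d averaged 0.901 ± 0.153 CPM in mutant larvae and 0.762 ± 0.130 CPM in wild type larvae. The levels of cldn10 were 0.315 ± 0.156 CPM in mutant larvae and 0.244 ± 0.132 CPM in wild type larvae. Those of cldn10e were 0.185 ± 0.0686 CPM in mutant larvae and 0.190 ± 0.0514 CPM in wild type larvae. The remaining pair, cldng and cldnd, were left out of the test for low counts. cldng had 3, 10, 8 and 4 counts in the mutant replicates, against 10, 20, 10 and 6 in wild type. cldnd had 2, 16, 4 and 0 counts in the mutant, against 6, 2, 2 and 5 in wild type, and the count of 0, in mutant replicate 4, is compatible with as many as 3 counts, or 0.0549 CPM.

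A run of claudin genes beside cldnb contained none of the 10, although cldnb and cldn30 were called higher under some alternatives given above. In the RefSeq annotation of GRCz12tu, cldn3c, cldn3d, cldnb, cldn29 and cldnd follow each other with no other protein-coding gene between them, and cldn30 comes after 1 more gene, cldn28, which is not analysed here. Their log2 fold changes were 0.10 ± 0.12 for cldn3c, -0.21 ± 0.20 for cldn3d, 0.58 ± 0.21 for cldnb, 0.04 ± 0.20 for cldn29 and 0.50 ± 0.16 for cldn30 (SE). For low counts, cldnd was left out of the test. The difference between this run and the one of cldne was not tested.

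Among other proteins of the tight junction, both occludin genes rose. A list of 52 partner genes was drawn up for the transmembrane proteins beside the claudins, the scaffolds under them and the polarity proteins that place the junction. The list was chosen with earlier results of these data known. These data do not show whether the product of each listed gene sits at the junction. Of 51 tested, 9 rose and 4 fell, or 17.6% and 7.84%, against 8.65% and 8.45% of all tested genes, and the median log2 fold change was 0.13. The occludin genes encode the other main strand protein of the junction. oclna had 58.8, 61.3, 53.1 and 65.0 CPM in the mutant replicates, against 39.4, 40.1, 36.1 and 41.1 CPM in wild type (0.60 ± 0.09, SE, edgeR adjusted p = 0.00297). oclnb averaged 31.8 ± 1.70 CPM in mutant larvae and 22.8 ± 2.35 CPM in wild type larvae (SD, n = 4 each, log2 fold change 0.48, edgeR adjusted p = 0.0106). The junctional adhesion molecule gene f11r.1 averaged 69.9 ± 4.19 CPM in mutant larvae and 46.9 ± 1.45 CPM in wild type larvae (SD, n = 4 each, log2 fold change 0.58, edgeR adjusted p = 0.00212). The polarity gene crb3b rose by 1.11 ± 0.23 on the log2 scale, marveld1 by 0.82 ± 0.15 and amotl2b by 0.51 ± 0.10 (SE, edgeR adjusted p = 0.011, 0.00595 and 0.0108). The 2 tjp1 genes, which encode scaffolds that link claudins to actin, were not called, with log2 fold changes of -0.06 ± 0.10 (tjp1) and -0.02 ± 0.09 (tjp1b, SE).

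The 4 partner genes that fell included 2 adhesion molecules. jam2a, which zebrafish muscle precursors need to fuse, had 5.42, 5.47, 6.03 and 4.90 CPM in the mutant replicates, against 16.0, 17.6, 11.8 and 11.4 CPM in wild type. The groups were far apart (-1.38 ± 0.16, SE, edgeR adjusted p = 0.000918). The scaffold gene magi1 (ENSDARG00000070145) averaged 50.6 ± 5.06 CPM in mutant larvae and 71.4 ± 4.37 CPM in wild type larvae (SD, n = 4 each, log2 fold change -0.50, edgeR adjusted p = 0.00925). The other magi1 gene (ENSDARG00000003169) was not called, and its groups overlapped (-0.15 ± 0.09, SE, edgeR adjusted p = 0.302). The endothelial adhesion gene esamb (-0.80 ± 0.21, SE) and the polarity gene pals1 (ENSDARG00000004721, -0.37 ± 0.11, SE) fell with edgeR adjusted p = 0.0309 and 0.0498, 0.00331 to 0.072 and 0.015 to 0.132 over their alternatives. The other pals1 gene (ENSDARG00000006272) was not called and had a positive value (0.15 ± 0.10, SE, edgeR adjusted p = 0.331). The esamb call was lost when mutant replicate 1 or 4 was left out, or wild type replicate 1, 2 or 4, and the pals1 call without any 1 library except wild type replicate 3. Scaled by library size only, both calls were lost (adjusted p = 0.053 for esamb and 0.112 for pals1), and pals1 also lost its call with upper-quartile factors (0.0569) and with no expression filter (0.0609). Leaving out any of those 5 libraries that ended the esamb call left 2 partner genes lower, and 1235 to 1773 of all genes. Without wild type replicate 3, 8 partner genes fell, and 3374 of all 27430 genes tested then. With every library 2287 of 27050 genes fell. With the replicate block 14 partner genes were higher and 6 lower, when 14% of all genes were higher and 13.4% lower.

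**Figure D5:**
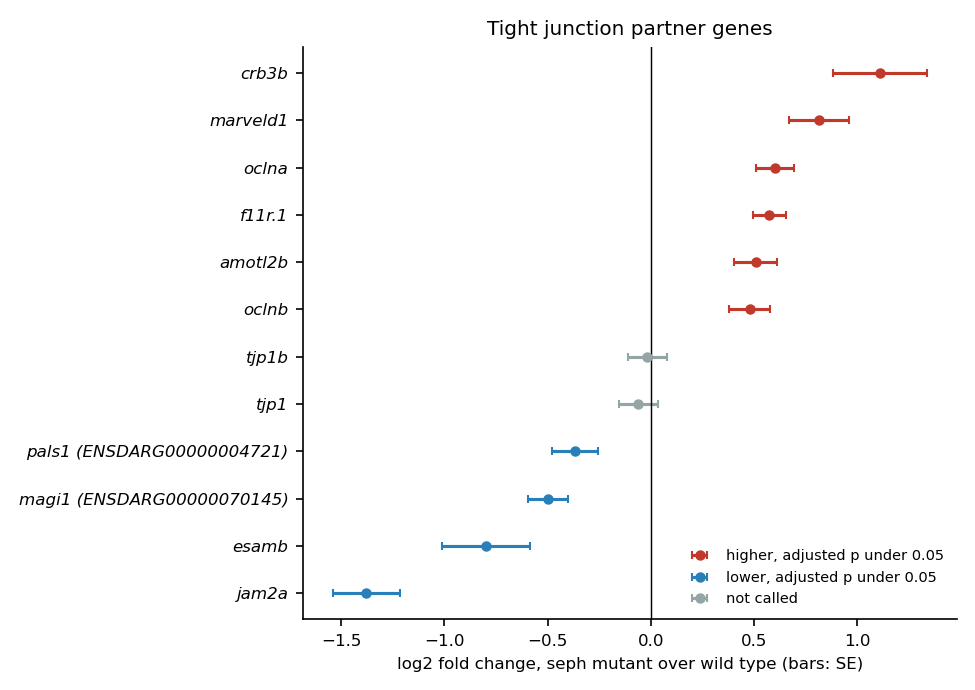
Log2 fold change of mutant over wild type for the tight junction partner genes named in the text, with bars for the SE. The uncalled magi1 and pals1 genes are not shown. Red genes were called higher, blue genes lower and grey genes not called; crb3b is at 1.11, jam2a at -1.38 and both tjp1 genes are near 0.

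Marker genes of the tissues that use claudins were read beside them, and the counts stand against the 8.65% of all tested genes that rose and the 8.45% that fell. In the epidermis list 7 of 25 tested genes rose (28%) and none fell, and the median log2 fold change was 0.39. Its summed level was 27729 to 43711 CPM in mutant libraries and 21104 to 36217 CPM in wild type libraries, so the groups overlapped, with wild type replicate 3 lowest. Of 22 pronephros genes 6 rose (27.3%) and none fell (median 0.27), and the sums of 655 to 783 CPM in the mutant lay above those of 526 to 599 CPM in wild type. In these 2 lists every call was an increase. Of 21 ionocyte genes 5 rose (23.8%) and 1 fell (4.76%, median 0.14, sums of 1136 to 1650 CPM in mutant libraries and 1119 to 1428 CPM in wild type libraries). The list entry behind that decrease matched 2 genes of 1 symbol after its last letter was dropped. The other gene was not called (log2 fold change 0.56, edgeR adjusted p = 0.187), and which gene the entry meant is uncertain. In the endothelium list 3 of 18 rose (16.7%) and 2 fell (11.1%, median -0.03, sums of 423 to 453 CPM in mutant libraries and 422 to 509.7 CPM in wild type libraries). Among 15 genes of myelinating glia 4 fell (26.7%) and none rose (median -0.11, sums of 416 to 434 CPM in mutant libraries and 449 to 511 CPM in wild type libraries). Of 21 intestine genes 8 fell (38.1%) and 1 rose (4.76%, median -0.49, sums of 2112 to 3043 CPM in mutant libraries and 3165 to 3841 CPM in wild type libraries). In the inner ear and lateral line list 1 of 25 rose (4%) and 2 fell (8%), against 8.65% and 8.45% of all tested genes. Its median was -0.08, with sums of 711 to 837 CPM in mutant libraries and 727 to 794 CPM in wild type libraries. For the counts of 0, unadjusted p under 0.05 gave 1 lower epidermis gene, 0 lower pronephros genes and 0 higher glia genes. The DESeq2 Wald test gave 0 for all 3, and limma-voom gave 1, 0 and 0. Of all genes, 15.8% were lower at unadjusted p under 0.05, 12.3% with the DESeq2 Wald test and 17.6% with limma-voom. Of 27050 genes, 3090 were higher with the DESeq2 Wald test and 5039 with limma-voom. The share of all genes higher at unadjusted p under 0.05 is not given here. No gene of these lists was at 0 in any library. Entries outside the ionocyte list also matched 2 genes of 1 symbol. Both genes of 1 such pair rose in the pronephros list, and in the endothelium list 1 gene of a pair rose and the other fell. In another pronephros pair 1 gene rose and the other was not called (log2 fold change 0.57, edgeR adjusted p = 0.119). The 1 increase in the intestine list was also from a pair, whose other gene was not called (log2 fold change -0.32, edgeR adjusted p = 0.0811). Among the intestine decreases, 1 gene came from a pair whose other gene was not called (log2 fold change -1.02, edgeR adjusted p = 0.0725). The pronephros and intestine lists share some genes, none of them called. The lists were chosen with earlier results of these data known, so their shares are a description. The part that any of these lists has in the claudin values was not tested.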

How the data were processed

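The authors deposited 1 table of raw read counts per Ensembl gene, with a column for each of the 8 libraries. STAR 2.3.0e and HTSeq 0.6.0 were used, per the submitters' processing notes. No label or header names the genome build, annotation release or strand setting, so overlapping, antisense and near-identical genes are uncertain. Symbols came from a table of Ensembl IDs and are written in lower case. It names 42 cldn IDs, of which 33 are analysed here.

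Counts were filtered with filterByExpr (minimum count 10), given TMM factors and fitted in edgeR 4.0.16 (R 4.3.3) by quasi-likelihood. The labels give no meaning to the replicate numbers, so the model held genotype alone. The p-values were adjusted by Benjamini-Hochberg over 27050 genes. The SE is the absolute log2 fold change divided by the square root of F. Limits from a count of 0 cover counting error only. The method was run on simulated counts. Those held no deviations shared between libraries, unlike the replicate 3 libraries here. Named members are all called ones, and the 15 with the highest mean CPM; the other members were added outside this rule. Named partner genes are the 8 called ones with the smallest p, the tjp1 and occludin genes, and the others that fell. The uncalled magi1 and pals1 genes were added outside this rule. Some further partner genes are left out here. Of 269 list entries, 157 matched by symbol, 39 by synonym, 34 after dropping a last letter a or b, and 39 had no match. The exocrine pancreas list (20 of 20 fell) and the hepatocyte list (4 of 18 rose, 4 fell) were also read. The members and lists were chosen with earlier results of these data known.

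Libraries with the same replicate number deviated together (correlations of 0.177, 0.131, 0.579 and 0.364 for numbers 1 to 4, across genes, against -0.361 to 0.17 between unlike numbers), so by a rule of every same-number value over 0.1 the numbers were taken to pair the samples. Replicates 1 and 2 were not set apart from each other by this. Mutant replicate 2 also had 0.158 with wild type replicate 4, above the 0.131 with its own number. This pairing comes from the data and not from the labels. The replicate block was therefore kept as an alternative, and the main calls are from the fit without it. Alternatives were DESeq2 1.42.0 size factors and Wald test, upper-quartile factors, library size only, limma-voom (limma 3.58.1) with quality weights, other filters, a replicate block, leaving out each library or both replicate 3 libraries, and stricter thresholds.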

Additional observations from a re-analysis of the deposited data

Results flagged for a closer look

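Of 66 groups of 4 libraries checked, 1 for each claudin gene and genotype, 6 held a library far from the other 3, where chance flags about 1 in 20. The measure is the gap to the nearest library divided by the whole range, with a critical value of 0.829. cldne was low in mutant replicate 1, at 91.5 CPM against 116 to 119 CPM (0.915). In wild type replicate 3 cldn3d was low, at 19.6 CPM against 34.2 to 35.5 CPM (0.915). cldn19 was low in mutant replicate 4, at 10.7 CPM against 11.7 to 11.8 CPM (0.904). Mutant replicate 3 was low for cldn30, at 5.56 CPM against 7.76 to 8.01 CPM (0.897), and for cldn2, at 5.10 CPM against 5.99 to 6.17 CPM (0.833). cldn2 was high in wild type replicate 4, at 7.43 CPM against 4.75 to 5.20 CPM (0.832). Of the 6 groups, 3 were flagged for a replicate 3 library.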

How the results depend on the processing

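The 10 claudin genes called higher were 8 to 13 under other scalings, tests and filters, the replicate block and the removal of libraries, 7 at an adjusted p under 0.01, and 2 with a 2-fold minimum. All 10 stayed positive in every one of the 17 alternatives to the fit. Those called lower numbered 2 with limma-voom, 1 with the replicate block, 0 to 1 without 1 library and 1 without both replicate 3 libraries. Tight junction partner genes called higher were 14 scaled by library size only, 14 with the block, 3 at an adjusted p under 0.01 and 1 with a 2-fold minimum, and 6 to 9 without 1 library. Partner genes called lower were 2 scaled by library size only, 7 with limma-voom, 8 without both replicate 3 libraries, 2 at an adjusted p under 0.01, 1 with a 2-fold minimum and 2 to 8 without 1 library. Over all genes, 5039 were higher and 4765 lower with limma-voom, 3783 and 3623 with the replicate block, 4200 and 3956 without both replicate 3 libraries, 955 and 915 at an adjusted p under 0.01, and 718 and 816 with a 2-fold minimum. Without 1 library, 1262 to 3667 were higher and 1235 to 3374 lower. Scaled by library size only, 2713 of all genes were higher and 1647 lower, against 2339 and 2287 in the main fit. A stricter threshold goes with smaller counts by construction. Leaving out libraries gave smaller counts in some fits and larger ones in others. The cause of these and the other changes, the 2 lower partner genes with library size only among them, was not tested. Besides the calls given above, the replicate block changed no call of a gene named here.

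Values near 0 changed sign. The log2 fold change of cldn15la was 0.0078 with upper-quartile factors, 0.065 scaled by library size only, 0.083 with limma-voom, 0.0033 with the replicate block, 0.019 without both replicate 3 libraries, and -0.13 to 0.14 without 1 library. Scaled by library size only, cldnd1 was at 0.0215, cldn11 (ENSDARG00000030723) at 0.022, tjp1 at 0.0201 and tjp1b at 0.061. Without 1 library cldn11 (ENSDARG00000030723) ranged from -0.17 to 0.0031 and tjp1b from -0.082 to 0.018. The cause was not tested. Depth limits cldn10 and cldn10e, which had 3 to 30 counts in each library, and cldng and cldnd, which were not tested.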
